A study of Homo sapiens with 16 samples.

Results

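Expression of 6 mucin genes, MUC1, MUC4, MUC13, MUC15, MUC16 and MUC20, was followed over time in SUM225, a line derived from a breast cancer that carries an amplified and over expressed HER2 gene. The cells were given 1 µM CP724,714, which inhibits the HER2 kinase. The 6 genes were taken by symbol and were represented by 11 probes of the 24526 on the array, with 3 probes for MUC1, 4 for MUC4 and 1 for each of the others. They were chosen with earlier results of these time courses in view, so their own courses are given as a description. Parallel cultures of the 1 line were harvested every 3 h from 0 to 45 h, and RNA of each was hybridized to 1 Illumina bead array. Per the labels, all were kept in a medium with serum, insulin and hydrocortisone. The study's methods instead describe serum-free medium lacking insulin and EGF for this line, and the difference was not resolved here. The 0 h culture served as the starting level. There were 16 arrays at 16 time points and no replicates, so each error given for a change is the standard error from the course fitted to the 16 values. Cells left without inhibitor for the same hours were not analysed here, so the inhibitor, time in culture and the start of treatment cannot be told apart, nor can a change in the number of cells of a kind from a change in RNA per cell.

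Mucins are large proteins whose serine- and threonine-rich stretches carry dense O-linked sugar chains. The secreted ones form mucus gels. The 6 genes here encode cell surface mucins, which cross the membrane of epithelial cells and hold the sugar chains out on the apical side. MUC1 lines the apical surface of luminal mammary cells and is the source of the serum marker CA15-3. MUC4 carries EGF-like domains and can bind HER2 within the membrane. MUC16 carries the CA125 epitope and binds mesothelin, MUC13 also carries EGF-like domains, MUC15 was described in the milk fat globule membrane, and MUC20 can interact with the receptor MET.

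The median signal of the arrays lay between 242.2 and 383.8, and between 57.5% and 61.5% of all probes had a detection p-value under 0.05, which is the criterion for "detected" used throughout. All 9 luminal epithelial markers examined, among them KRT8, KRT18, KRT19, CDH1, ERBB2 and GRB7, were detected on all 16 arrays. Their summed signal was between 240420 and 343900. The sum includes ERBB2, the HER2 gene amplified in this line, with signals up to 99.4% of the array maximum. It was not used to estimate luminal cell content. Of 8 markers of other cell types, VIM, COL3A1, PTPRC and DCN were detected on none of the arrays. COL1A1 was detected on 5 and PECAM1, CD68 and ACTA2 on 16, and the summed signal of the 8 was between 2452.5 and 4147.7. Over 45 h ACTA2, a smooth muscle actin, fell by 1.7 log2 units (± 0.18, SE) and CD68, a macrophage marker, rose by 0.38 ± 0.14, while among the luminal markers KRT8 fell by 0.68 (± 0.10), 1 KRT18 probe fell by 0.74 (± 0.10) and CLDN4 rose by 0.65 ± 0.21. A second KRT18 probe changed by -0.07 ± 0.16 and a second CD68 probe, detected on 6 arrays, by 0.65 ± 0.31 (adjusted p = 0.0954, limma). The part of these changes in the mucin courses was not tested.

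RefSeq promoter windows were found for 4 of the 6 genes and not for MUC15 and MUC20. The 250 bases before the annotated start are shown for 3 of them, since MUC1 and MUC16 were clearly detected and higher late in the time course while MUC4 stayed near background. All 3 lie on the minus strand of GRCh38.p14 and are printed 5′ to 3′ in the direction of transcription. The MUC1 window is chr1:155192916-155193165, that of MUC16 is chr19:9065752-9066001 and that of MUC4 is chr3:195811930-195812179. Capitals mark matches, on either strand, to any of 7 motifs searched, which were the GC box GGGCGG, the PEA3 motif AGGAAG, the E-box CACCTG, the TATA box TATAAA, the STAT motif TTCNNNGAA, the FOXO motif TGTTTAC and the AP-1 motif TGANTCA.
MUC1: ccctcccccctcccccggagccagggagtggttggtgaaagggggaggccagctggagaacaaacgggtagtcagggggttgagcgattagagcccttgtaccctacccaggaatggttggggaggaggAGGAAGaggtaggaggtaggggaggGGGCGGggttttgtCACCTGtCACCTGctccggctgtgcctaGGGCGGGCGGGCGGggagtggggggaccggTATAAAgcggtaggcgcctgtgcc
MUC16: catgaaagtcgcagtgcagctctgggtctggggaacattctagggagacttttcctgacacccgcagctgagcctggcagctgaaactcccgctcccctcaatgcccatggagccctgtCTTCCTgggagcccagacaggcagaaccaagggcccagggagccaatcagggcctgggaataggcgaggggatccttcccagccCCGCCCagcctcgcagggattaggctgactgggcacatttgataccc
MUC4: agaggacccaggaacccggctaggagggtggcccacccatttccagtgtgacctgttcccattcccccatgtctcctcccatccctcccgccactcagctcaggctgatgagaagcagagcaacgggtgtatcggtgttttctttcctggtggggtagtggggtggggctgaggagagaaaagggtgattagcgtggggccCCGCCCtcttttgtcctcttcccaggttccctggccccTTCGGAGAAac

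The MUC1 window held 4 GC boxes, 3 of them overlapping, as well as 2 E-boxes, 1 PEA3 motif and a TATA box that began 24 bases before the start. The MUC16 window held 1 PEA3 motif and 1 GC box. The MUC4 window held 1 GC box and 1 STAT motif, and no PEA3 motif was found in it. A second RefSeq start of MUC1, slightly downstream, gave the same matches. A second start of MUC16 lies within the gene, and its window held 1 PEA3 motif, 1 E-box and 1 AP-1 motif. The MUC13 window, not shown, held 1 PEA3 motif and 1 AP-1 motif. Of 35116 RefSeq windows of this length, 42.6% held a GC box, 28.7% a PEA3 motif, 17.5% the E-box, 10.7% the TATA box, 6.57% the STAT motif, 6.57% the AP-1 motif and 2.98% the FOXO motif. The matches describe the letters of the windows and were not tested against the courses.

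MUC1, MUC15, MUC16 and MUC20 were detected on all 16 arrays and were higher in the second day of treatment than at its start. On every array from 24 to 45 h each of their 6 probes was more than 1.7-fold above its 0 h value and above all of its values at 0 to 6 h. The largest excess over 0 h was 4.41-fold for MUC20, 4.22-fold for MUC15, 3.45-fold for MUC16 and, by probe, 2.49-, 2.97- and 3.36-fold for MUC1. MUC13 was detected on 4 arrays and the MUC4 probes on 0 to 7, and neither gene gave a course that could be read above background.

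**Figure D1:**
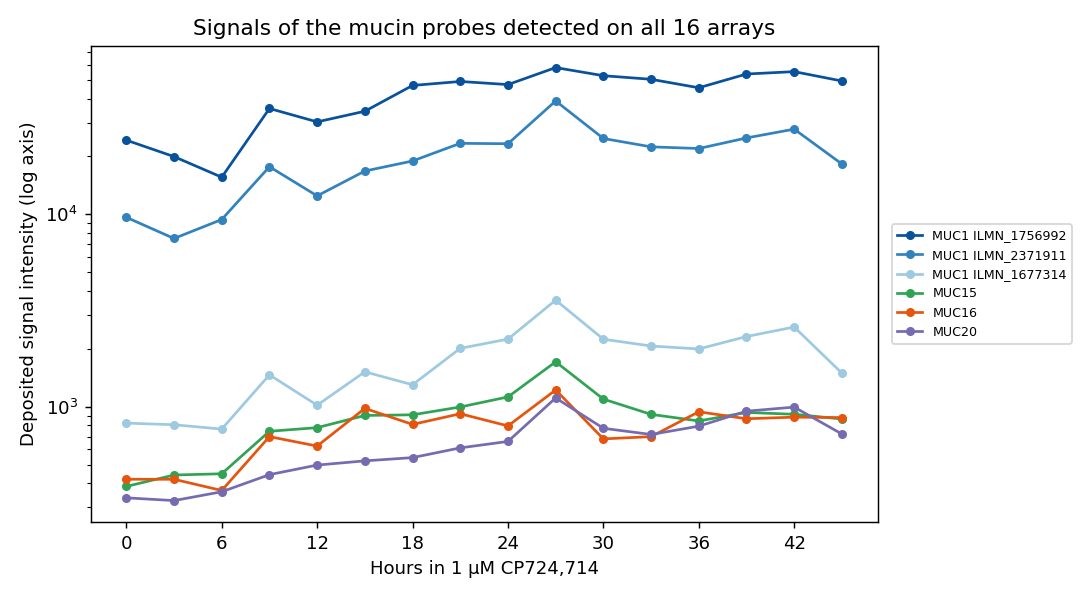
Deposited signal intensity (log axis) of the 6 mucin probes detected on all arrays against hours in 1 µM CP724,714, with 1 point per array. All 6 had their highest signal at 27 h, the array with the highest median over all probes (383.8), before normalization.

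The MUC1 probe with the highest signals (ILMN_1756992) had deposited signals from 15607 at 6 h to 57975 at 27 h. Its normalized log2 values were 14.54, 14.53, 14.32 and 15.07 at 0, 3, 6 and 9 h and 14.84, 14.89, 15.26 and 15.17 at 12, 15, 18 and 21 h. They were 15.58, 15.39, 15.67 and 15.69 at 24, 27, 30 and 33 h and 15.63, 15.68, 15.75 and 15.86 at 36, 39, 42 and 45 h. The probe was thus not above 0 h at 3 or 6 h, was above it on the other 13 arrays and ended at its maximum, 2.49-fold over 0 h. Its widest step was that from 6 to 9 h, 0.75 log2 units. Its highest signal was 79.7% of the brightest signal on that array. Whether signals this high held down its fold, the smallest of the 3 MUC1 probes, was not tested.

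The other MUC1 probes began their excess earlier. ILMN_2371911 was below 0 h only at 3 h (13.15 against 13.23), stood at 14.12 at 9 h, was 13.58 at 12 h and lay between 14.49 and 14.81 from 24 h on. ILMN_1677314 was lowest at 0 h (9.49), reached 10.40 at 9 h, was 9.74 at 12 h, 10.37 at 21 h and 11.10 at 24 h, and lay between 10.77 and 11.23 thereafter. For both the maximum was at 42 h and the last array was lower, by 0.31 and 0.47 log2 units. All 3 MUC1 probes had a local peak at 9 h and a lower value at 12 h. Within an array the log2 difference between the first and second probe ranged from 0.66 at 6 h to 1.38 at 3 h, with a median of 1.02. Whether this spread exceeded the scatter of the probes was not tested. Which transcripts each probe reports was not determined here.

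MUC15 had log2 values of 7.89, 8.58, 8.77 and 9.22 at 0, 3, 6 and 9 h. The next 4 arrays were nearly level at 9.25, 9.27, 9.29 and 9.18. The values at 24, 27, 30 and 33 h were 9.97, 9.91, 9.91 and 9.70, and those at 36, 39, 42 and 45 h were 9.62, 9.61, 9.53 and 9.85. MUC15 was the first of the 4 genes to pass 1.7-fold, at 6 h, and stayed past it on all later arrays. The course was higher on each array up to 9 h, then had a plateau, a step of 0.79 log2 units between 21 and 24 h and a decline from the 24 h maximum until 42 h. Its deposited signals were between 385.3 and 1713.

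MUC16 had log2 values of 8.10, 8.47, 8.31 and 9.08 at 0, 3, 6 and 9 h and 8.84, 9.43, 9.09 and 9.04 at 12, 15, 18 and 21 h. It had 9.37, 9.33, 9.04 and 9.21 at 24, 27, 30 and 33 h and 9.82, 9.48, 9.47 and 9.89 at 36, 39, 42 and 45 h. Its widest steps were from 6 to 9 h (0.77) and from 33 to 36 h (0.61), and it was highest on the last array. The values at 9 to 21 h overlapped those at 24 to 45 h, so unlike MUC20 it had no gap between the first and second day. Its deposited signals were between 367.1 and 1223.

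MUC20 had log2 values of 7.54, 7.82, 8.27 and 8.12 at 0, 3, 6 and 9 h and 8.34, 8.19, 8.29 and 8.25 at 12, 15, 18 and 21 h. It then had 9.02, 9.15, 9.29 and 9.27 at 24, 27, 30 and 33 h and 9.51, 9.64, 9.68 and 9.53 at 36, 39, 42 and 45 h. The 8 later arrays were all above the 8 earlier ones, with the step of 0.77 log2 units between 21 and 24 h as its widest. MUC20 and MUC4 are neighbouring genes in the RefSeq table, and the table also lists a MUC20 pseudogene. Whether the MUC20 probe separates the gene from it was not tested. Its deposited signals were between 325.2 and 1111.

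**Figure D2:**
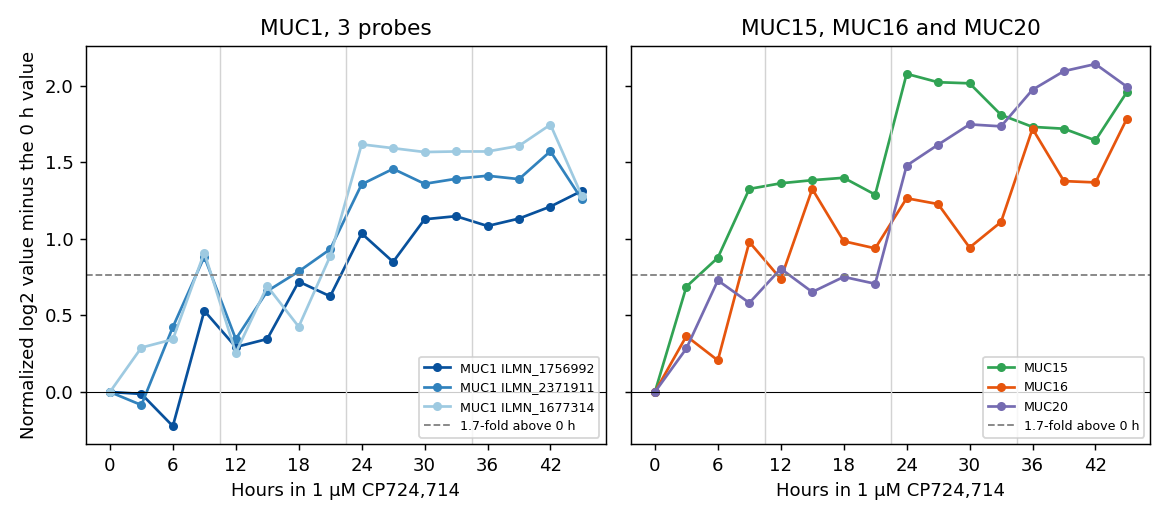
Normalized log2 value minus the 0 h value against hours in 1 µM CP724,714 for the 3 MUC1 probes (left) and for MUC15, MUC16 and MUC20 (right), with 1 point per array, a dashed line at 1.7-fold and pale vertical lines between sets of 4 consecutive arrays. From 24 h on every point lies above the dashed line, and MUC1, MUC15 and MUC20 step up between 21 and 24 h.

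The linear change over 45 h, the first-order term of a cubic course fitted by limma to the log2 values, was 2.14 ± 0.17 (SE) for MUC20. It was 1.40 ± 0.17 for MUC15, 1.35 ± 0.17 for MUC16 and 1.46 ± 0.12, 1.52 ± 0.14 and 1.67 ± 0.19 for the 3 MUC1 probes. Ordered from the largest rise, MUC20 ranked 81 among the 16110 probes tested, the MUC1 probes 187, 251 and 277, MUC15 315 and MUC16 386. Of the 10 mucin probes that passed the detection filter, 7 had a linear trend at an adjusted p under 0.05, all of them upward, where 47.7% of all probes tested had a trend, 26% upward and 21.7% downward. Among the 7 was the MUC13 probe, which passed the filter only through its detection at 21, 27, 36 and 39 h and stayed near background. Of the 10, 6 had a rise of at least 1 log2 unit, against 5.66% of all probes. The same 6 were more than 1.7-fold above 0 h on every array from 24 h on, as were 4.38% of all probes, and had every value from 24 h on above the highest value at 0 to 6 h, as had 18.3%. The genes were chosen with these courses known, and nothing is read from the counts. A departure from a straight line was present for MUC15 and for 1 MUC1 probe (ILMN_2371911), where 19.3% of all probes had one.
By the looser criterion of 1.7-fold above 0 h on at least 1 later array, met by 25.6% of all probes, 7 of the 10 probes and 5 of the 6 genes counted, MUC4 only through 1 probe at 21 h that was not detected at 0 h. In the other direction, 26% of all probes and 2 MUC4 probes were 1.7-fold below 0 h on at least 1 later array. These were ILMN_1727314 on 6 later arrays and ILMN_1792039 on 1. Neither was detected on the arrays where it counted, so no fall is read from them.

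The arrays were also taken in sets of 4 consecutive time points (0 to 9 h, 12 to 21 h, then 24 to 33 h and last 36 to 45 h), which the labels do not call batches and which were considered because earlier results of these data had shown steps between them. The mean log2 values of MUC20 in the 4 sets were 7.94 ± 0.32, 8.27 ± 0.06, 9.18 ± 0.13 and 9.59 ± 0.08 (SD, n = 4 time points each). For MUC15 they were 8.61 ± 0.55, 9.25 ± 0.05, 9.87 ± 0.12 and 9.65 ± 0.14. Within the first set MUC15 was 1.33 and MUC20 0.58 log2 units higher at 9 h than at 0 h, out of full ranges of 2.08 and 2.14. Most of the MUC15 range thus lay within the first set, and its values from 12 h on lay between 9.18 and 9.97. Most of the MUC20 range lay between sets. The step from 21 to 24 h was larger than that of 97.8% of all probes for MUC15, 97.6% for MUC20, 85.3% for MUC16 and, for the 3 MUC1 probes, 89.5%, 90.1% and 97.3%.

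With a straight line fitted and each set allowed its own level, the linear changes were 1.55 ± 0.47, 1.79 ± 0.61 and 1.32 ± 0.70 for MUC1, 1.41 ± 0.80 for MUC15, 0.93 ± 0.81 for MUC16 and 1.13 ± 0.57 for MUC20. All 6 kept their sign, with larger errors, as did 83.7% of all probes with a trend. In this fit 0 of the 10 mucin probes were past the threshold, where 0.9% of all probes were (145 of 16110, limma, adjusted p under 0.05). For each of the 6 the difference from first to last array of a set was largest at 0 to 9 h, between 0.53 and 1.33 log2 units. It was between -0.10 and 0.63 at 12 to 21 h and between -0.29 and 0.26 in the later sets. Of the MUC4 probes, 2 changed sign in this fit, to 0.78 ± 1.29 and 1.16 ± 1.34. Treatment time and a difference between sets cannot be told apart beyond the 9 h that each set spans.

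**Figure D3:**
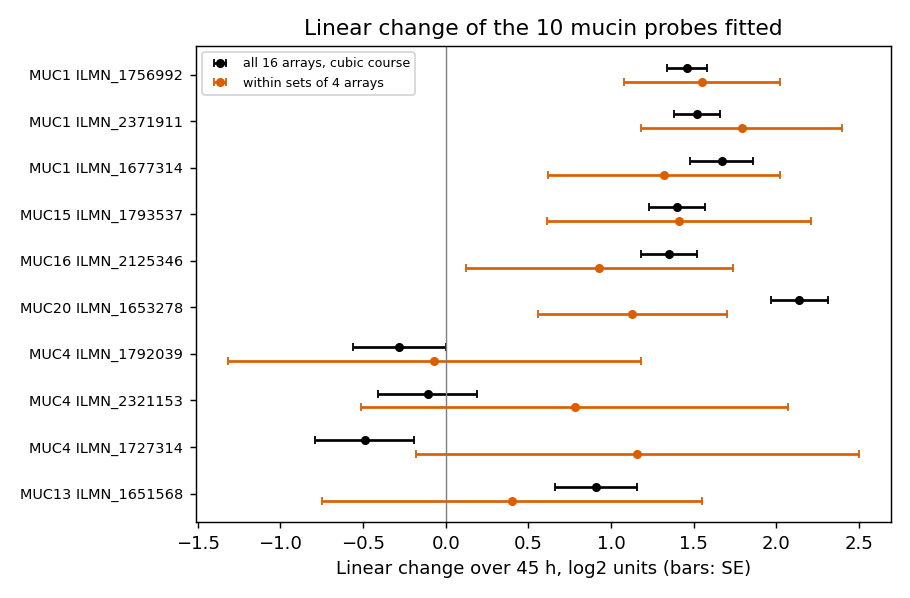
Linear change over 45 h in log2 units (points, with bars of 1 SE) of the 10 mucin probes fitted, over all 16 arrays with a cubic course (black) and within sets of 4 arrays (orange). The MUC1, MUC15, MUC16 and MUC20 estimates are above 0 in both fits, and the errors are larger within sets.

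MUC4 and MUC13 stayed near the detection limit. The MUC4 probe ILMN_1792039 was detected at 0, 3, 6, 9, 27, 42 and 45 h, and its log2 values ranged from 5.43 to 6.68 with a median of 5.97. ILMN_2321153 was detected on 7 arrays (6, 9, 18, 21, 24, 27 and 36 h) and ranged from 5.33 to 6.47. ILMN_1727314 was detected at 0, 3, 21 and 33 h, ranged from 5.22 to 6.63, and was below its 0 h value on 14 of the 15 later arrays. The fourth probe, ILMN_2246555, was detected on none and lay between 4.67 and 4.95. The lowest log2 value of any detected probe was between 5.97 and 6.24 by array. The ranges of the first 3 probes thus straddle the limit, and no fold change is read from any MUC4 probe. The 3 MUC4 probes with a fit had linear changes of -0.28 ± 0.28, -0.11 ± 0.30 and -0.49 ± 0.30 (SE), and no 2 of them were detected on the same set of arrays.

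The MUC13 probe was detected at 21, 27, 36 and 39 h. Its log2 values were between 4.94 and 5.63 on the first 7 arrays and between 5.40 and 6.25 on the last 9, so the detected arrays all fell in the second part of the series. Its linear change was 0.91 ± 0.25 (SE), and 0.34 ± 0.09 without background correction. The value at 45 h, 6.15, was not above background.

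**Figure D4:**
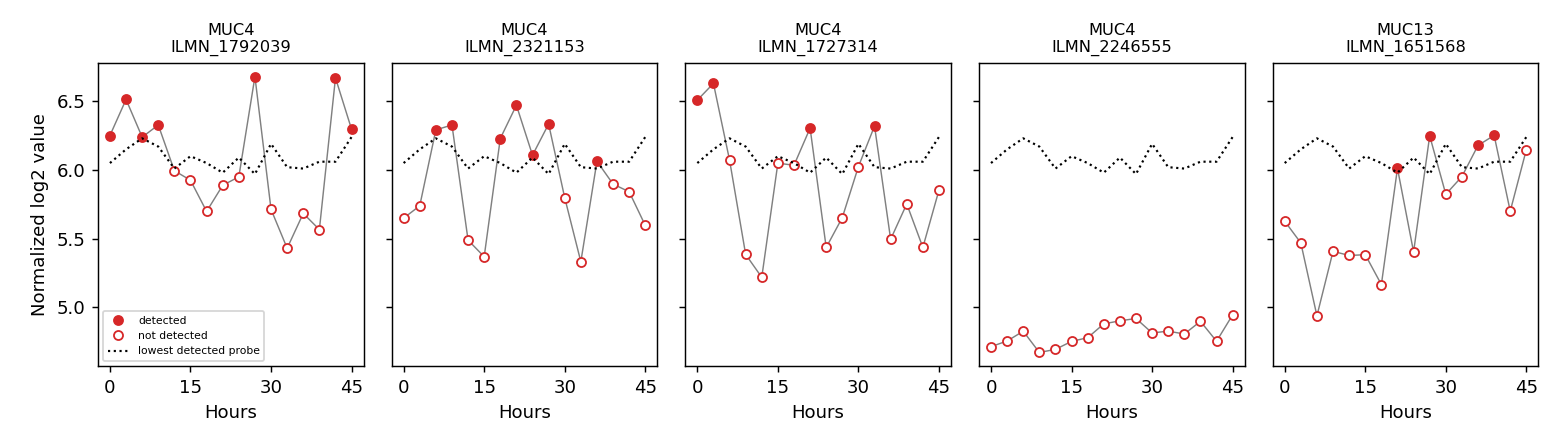
Normalized log2 value against hours for the 4 MUC4 probes and the MUC13 probe, with 1 point per array, filled where the probe was detected and open where it was not. The dotted line is the lowest log2 value of any detected probe on each array, and most points lie below it.

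The courses of other genes that were most like those of the mucins were found by Pearson r over the 16 arrays, as a description. They share the arrays and the time order, so high values are common among genes with a trend. VLDLR, CYP4B1 and BCAS1 were most like MUC1 (r = 0.977, 0.971 and 0.970), C14orf93, HIST2H2AC and ANKS1B most like MUC15 (0.981, 0.968 and 0.967). LEPR, TMEM16F and BTD were most like MUC16 (0.961, 0.954 and 0.945) and SLC29A3, MPPE1 and SAT most like MUC20 (0.985, 0.981 and 0.977). RefSeq names TMEM16F as ANO6 and SAT as SAT1. For MUC13 the nearest were FBXO4, OSBPL10 and FUBP3 (0.878, 0.877 and 0.865), and for MUC4 they were ADH6, MICAL2 and C16orf35 (0.776, 0.712 and 0.706), both from probes mostly not detected. Among the 4 detected mucins, r ranged from 0.79 between MUC16 and MUC20 to 0.89 between MUC1 and MUC20.

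Genes of the mucin pathway outside the 6 were grouped by function, and 110 were listed, 100 were on the array and 81 were tested. Of these 31 rose and 14 fell (limma, adjusted p under 0.05), so that 55.6% had a trend. Of all probes tested 47.7% had one, 26% upward and 21.7% downward. The shares differ in kind, since each pathway gene was counted once, by its brightest tested probe. Of the 81 genes, 62 were detected on all 16 arrays. The median linear change of the 81 was 0.11, against 0.05 log2 units over all probes. Of the 18 other mucin genes 10 were on the array and 6 were tested. MUCL1, listed as SBEM and known as small breast epithelial mucin, changed by 0.14 ± 0.05 (SE, adjusted p = 0.0176). Its signals reached 97.7% of the array maximum, where a larger rise may not register. CD164, a sialomucin, rose by 0.55 ± 0.17 (adjusted p = 0.0127), and MUC21, a membrane mucin listed as C6orf205, rose by 0.34 ± 0.12 (adjusted p = 0.0265). A second MUC21 probe, detected on 5 arrays, changed by 0.86 ± 0.23. The secreted mucin MUC2 (-0.19 ± 0.30), OVGP1 (0.01 ± 0.11) and PODXL (0.01 ± 0.14) were not past the threshold. MUC7, MUC17 and EMCN were detected on no array and MCAM on 1.

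The first sugar of a mucin chain is added by GalNAc transferases, of which 11 of 18 were tested, 2 rose and 3 fell, with a median linear change of 0.11. GALNT4, known for glycosylating already modified mucin stretches, rose most, with log2 values of 8.60 on the 0 h array and 10.70 on the 45 h array and a linear change of 2.34 ± 0.12 (adjusted p = 2.72e-11). GALNT11 rose by 0.38 ± 0.14. GALNT16, listed as GALNTL1, fell by 4.22 log2 units (± 0.53, adjusted p = 1.84e-06) and was detected on 13 arrays, and GALNT6 fell by 1.21 (± 0.26, adjusted p = 0.000671). Of 8 core and extension enzymes 4 rose and none fell, with a median of 0.43. The largest rises were those of C1GALT1C1, the chaperone of the core 1 synthase (0.93 ± 0.11, adjusted p = 6.66e-07), and B4GALT4 (0.80 ± 0.12, adjusted p = 1.05e-05). The core 1 synthase C1GALT1 itself had a linear change of -0.05 ± 0.18, which does not describe its course. Its log2 value was highest at 0 h (9.80), with a median of 8.95 and 8.93 at 45 h. Of 13 capping enzymes, which add sialic acid, fucose or sulfate, 4 rose and 1 fell, with a median of 0.08. The sulfotransferase CHST4 rose by 0.85 ± 0.18, GAL3ST4, detected on 6 arrays, by 0.76 ± 0.26, and GAL3ST2 fell by 0.87 (± 0.16, adjusted p = 0.000146). A trend was present in 45.5% of the GalNAc transferases, 50% of the core and extension enzymes and 38.5% of the capping enzymes tested. Over all probes tested the share was 47.7%, with 26% upward and 21.7% downward, and nothing is read from the counts by list.

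Of 16 genes for sheddases, ligands and signaling partners of mucins, 7 rose and 4 fell, with a median of 0.27. A trend was thus present in 68.8%, against 47.7% of all probes tested. LGALS3, the galectin that binds MUC1 sugars, rose from 12.67 to 14.71, a linear change of 1.90 ± 0.11 (adjusted p = 1.48e-10), and its second probe gave 1.78 ± 0.28. MSLN, mesothelin, the ligand of MUC16, rose from 10.95 to 12.46, a change of 1.30 ± 0.10 (adjusted p = 3.7e-09). The sheddase ADAM10 rose by 1.44 ± 0.25 (adjusted p = 8.62e-05). HGF, the ligand of MET, fell by 0.65 (± 0.19, adjusted p = 0.00801) and the adaptor GRB2 by 0.58 (± 0.09, adjusted p = 3.31e-05), but a second GRB2 probe changed by 0.07 ± 0.12 and a second HGF probe, detected on 3 arrays, by -0.12 ± 0.29. MET (0.26 ± 0.15) was not past the threshold. The 3 probes of ERBB2, the HER2 gene, differed, and the brightest, with signals up to 99.4% of the array maximum, changed by 0.02 ± 0.04. Its log2 values lay between 16.02 and 16.13, so near the maximum that a change may not register. A dimmer probe, detected on 16 arrays, rose by 0.44 ± 0.09 (adjusted p = 0.000418) and the third, detected on 12, changed by 0.06 ± 0.24.

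Of 8 genes tested for mucus secretion, 3 rose and 3 fell (75% with a trend, against 47.7% of all probes tested), with a median of -0.06. Of the trefoil peptides, which are secreted with mucins, TFF2 was detected on 0 arrays and TFF3 and TFF1 fell, TFF3 from 12.27 to 11.26 with a linear change of -1.30 ± 0.09 (adjusted p = 7.73e-10) and TFF1 by the same size of change, -1.30 ± 0.22 (adjusted p = 5.85e-05) while detected on 10 arrays. AGR2, a disulfide isomerase needed for mucin folding, also fell, with a linear change of -0.34 ± 0.11 (adjusted p = 0.0171). Its log2 value was highest at 0 h (12.21), with a median of 11.44 and 11.38 at 45 h. MARCKS rose by 0.74 ± 0.07 (adjusted p = 8.63e-08), and AGR3, detected on 3 arrays, by 1.00 ± 0.29. Of 19 tested transcription factors known to act on mucin genes, 8 rose and 3 fell, with a median of 0.06. The share with a trend was 57.9%, against the same 47.7%. ELF3, an epithelial ETS factor, rose from 12.79 to 15.24, a change of 1.85 ± 0.13 (adjusted p = 1.54e-09), and ESR1 rose by 1.08 ± 0.23. The PEA3 group factors ETV5 and ETV4 fell by 3.56 (± 0.42, adjusted p = 8.71e-07) and 3.33 (± 0.24, adjusted p = 1.71e-09). ETV4 was detected on 12 arrays. Its second probe gave -3.38 ± 0.27 and the second ETV5 probe -0.13 ± 0.30. STAT3 (0.03 ± 0.09) and SP1 (0.06 ± 0.11) were not past the threshold. C1GALT1, MSLN, MET, ERBB2, AGR2, STAT3 and SP1 were named after their values were seen.

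With the set of 4 arrays as a factor, 38 of the 45 genes with a trend kept its sign, where 83.7% of all probes with a trend did, and none of these 45 was past the threshold in that fit. LGALS3 (1.87 ± 0.53) and GALNT4 (1.99 ± 0.56) had an adjusted p of 0.0981 each within sets.

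**Figure D5:**
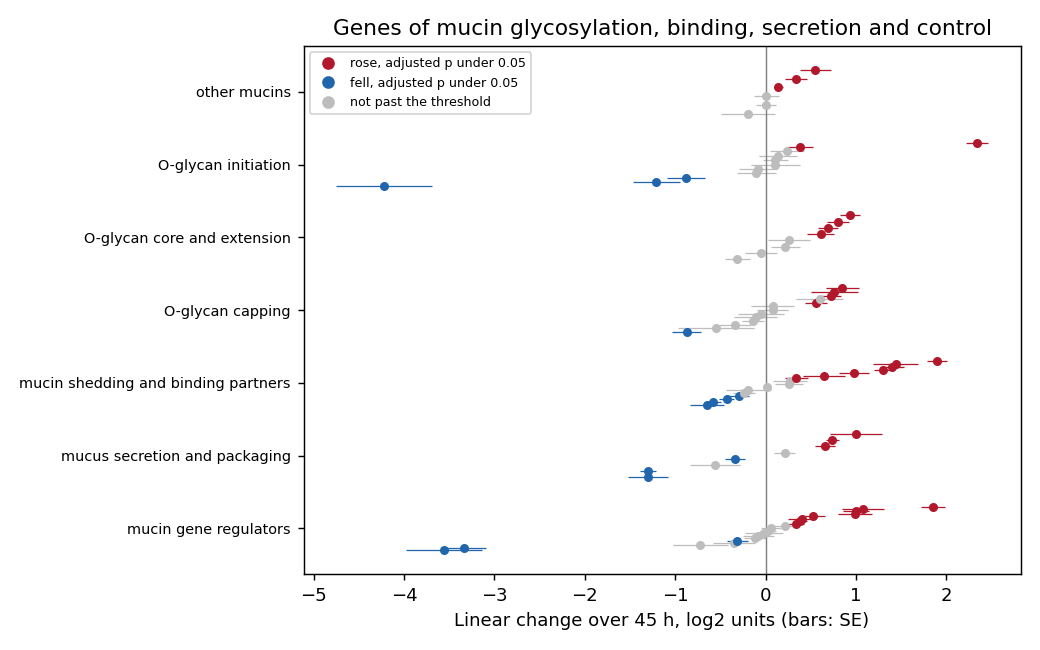
Linear change over 45 h in log2 units (points, with bars of 1 SE) of the 81 tested genes outside the 6, by functional list. Red points rose and blue points fell at an adjusted p under 0.05, and gray points were not past it. GALNT4, LGALS3 and ELF3 lie farthest to the right in their lists, and GALNT16, ETV5 and ETV4 lie beyond -3.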

How the data were processed

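RNA of 16 cultures was labeled as biotinylated cRNA and hybridized to Illumina bead arrays. The deposited table, made by the authors, held for each probe and array a signal intensity that was not normalized and a detection p-value. The study's methods name the Illumina human Ref8v2 array for its time courses, the labels give no version, and the scanning software and genome build are not given in the sources used here. Columns were assigned to time points by their sample names.

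Intensities were background-corrected by normexp with controls inferred from the detection p-values (offset 16), quantile normalized and log2 transformed in limma 3.58.1 (R 4.3.3). Probes with a detection p-value under 0.05 on at least 3 arrays were kept (16110 of 24526). A cubic course in hours was fitted by lmFit and eBayes with a trend, its linear term was scaled to 45 h, and p-values were adjusted by the method of Benjamini and Hochberg over all probes kept, with 0.05 as threshold. A threshold of 1.7-fold from 0 h was also used. Fits were tested on simulated data. With 1 array per time point there was no replicate spread, and p-values measure scatter about the fitted course. The number of arrays limits the precision.

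The 6 genes, the pathway and marker lists and the sets of 4 arrays were chosen with earlier results of these data known. All probes of the 6 genes were named, with the 3 other genes of highest Pearson r to the brightest probe of each, the other mucin genes tested and, of each pathway list, the 2 largest rises and 2 largest falls past the threshold. For a pathway gene with several probes, the probe with the highest mean was used. File symbols matched RefSeq genes for 91% of 18631 symbols, and older symbols were updated through that table (GRCh38.p14). Alternatives were other background corrections, scalings, filters and fold thresholds, a straight line, the set as a factor, array weights and leaving out each array. The values of 1 pathway gene are not reported here.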

Additional observations from a re-analysis of the deposited data

How the results depend on the processing

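Of 317 recomputed values, 304 had the same direction and call as reported, a count being taken as the same within 1.5 times. Most of the 317 came from leaving out 1 array, which keeps nearly all of the data, so the ratio is a weak check. Such counts were 8 mucin probes with array weights and 6, of 6 tested, among probes detected on all arrays, against 7. They were 41 pathway genes under median scaling and under cyclic loess, and 37 with a straight line and 37 among probes detected on all arrays, against 45. With a straight line and the set of 4 arrays as a factor, 2 choices changed together, the mucin probes with a linear trend went from 7 to 0 and the pathway genes from 45 to 1, against 7 and 37 with the straight line alone. In that fit the MUC4 probes ILMN_2321153 and ILMN_1727314 reversed to 0.78 and 1.16, and with array weights ILMN_2321153 reversed to 0.02 while ILMN_1727314 was past the threshold at -0.88. The cause was not tested. Leaving out 1 array at a time gave 7 to 7 mucin probes and 37 to 46 pathway genes with a trend, and 4 to 5 genes past 1.7-fold above 0 h, with 4 without the 21 h array, where MUC4 dropped out. MUC4 also dropped out without background correction, with an offset of 50 and with a 2-fold threshold. The change of MUC15 ranged from 1.08 without the 0 h array to 1.55, that of MUC16 from 1.2 to 1.43 and that of MUC20 from 2.08 to 2.26. MUC13 changed by 0.34 without background correction against 0.91. The median change of all probes was between 0.003 under cyclic loess and 0.05, and the share of upward calls was 48% under cyclic loess against 54.5% as reported. No paired analysis was possible because only 1 array was made at each time. MUC4 and MUC13 signals near background limit what can be read of them.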
